A study of Mus musculus with 7 samples.

Results

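The integrated stress response regulators described here are 10 genes, chosen by name from what is known of the pathway: Atf4, Atf3, Atf5, Ddit3, Trib3, Cebpb, Cebpg, Ppp1r15a, Ppp1r15b and Nupr1. They and the gene lists below were chosen with earlier results of these data known. Each stood on 1 row of a deposited expression table of 49382 genes. The table holds RNA-seq of 7 libraries of wild-type mouse embryonic fibroblasts (MEFs), connective tissue cells grown from embryos of day 13.5 to 14.4 without the head and the red tissue, in medium with 10% serum, and used at passage 3 to 7. The control library came from untreated cells, with no time of harvest stated, and each of 6 conditions gave 1 library. Oxidative stress was 10 μM sodium arsenite for 3 hours, osmotic stress was 100 mM added NaCl for 3 hours, and ER stress was 1 μM thapsigargin, a blocker of the calcium pump of the endoplasmic reticulum (ER), for 10 hours. Hypoxia (0.1% oxygen), glucose depletion and glutamine depletion each lasted 10 hours. The study's methods describe sorting of these fibroblasts for purity, which the sample labels do not mention. The embryonic days and passages given above are those of the labels, and the methods give slightly different ranges. Cells were plated at 10000 per square centimetre. The sources used here do not give the number of embryos or say whether the cultures shared them.

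Several kinases sense different stresses and converge on 1 event, the phosphorylation of the translation initiation factor eIF2α. This lowers protein synthesis in general while the Atf4 mRNA is translated more, through short upstream reading frames. ATF4 is a basic leucine zipper (bZIP) transcription factor that pairs with C/EBP proteins and switches on amino acid transport and synthesis, the transcription factor CHOP (the product of Ddit3), and the genes that end the response. RNA-seq measures the transcripts, so neither the phosphorylation of eIF2α nor the translation of Atf4 is read here.

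Levels are given in TPM, a transcript's share of a library after division by its length, so that levels of different genes can be set side by side. Changes are differences of log2(TPM + 1) between a condition and the control library, and a gene was counted as having risen or fallen where this difference was past 2-fold. The added 1 TPM makes changes of low genes look smaller. With 1 library per group there is no spread between replicates, so no difference was tested, no error can be given, and the order of neighbouring levels cannot be told from chance variation between libraries. TPM keeps no read number, so the depth behind each value is unknown. All 6 comparisons share the same control library. The study's methods describe new medium for the glucose and glutamine depletions and state no change of medium for the control. The parts of culture time and of a medium change in each difference therefore cannot be told apart from that of the treatment. In bulk RNA, a smaller share of responding cells and less RNA per cell cannot be told apart.

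All 10 regulators passed the filter of a mean of at least 2 TPM, as did 12909 genes in all. The most regulators past 2-fold were found in ER stress, where Atf4, Atf3, Ddit3, Trib3, Ppp1r15a and Nupr1 rose and none fell. This was 6 of 10 genes, against 8.6% of the 12909 genes that rose and 11% that fell. In osmotic stress Atf3, Ppp1r15a and Nupr1 rose (3 of 10, against 3.08% of all genes) and Ddit3 and Trib3 fell. A count of 2 falls in 10 genes is near the 8.76% of all genes that fell, so these falls are given as values of single genes. In glutamine depletion Atf3 and Nupr1 rose (2 of 10, against 3.21%) and none fell (3.21% of all genes).

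Oxidative stress raised Atf3 alone (1 of 10, against 3.94% of all genes) and lowered none (4.85% of all genes). Hypoxia raised Trib3 alone (1 of 10, against 3.57%) and lowered none (2.64% of all genes). With 10 genes, a count of 1 is too close to these shares to be read as a result about the group. Glucose depletion left all 10 within 2-fold, with 1.83% of all genes raised and 2.41% lowered. Of the 60 combinations of a gene with a condition, 13 were rises and 2 were falls. Against the median of the 7 libraries in place of the control, the osmotic stress count was 1 rise and that of glutamine depletion 0, because Atf3 and Nupr1 were then within 2-fold.

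The median log2 change of the 10 genes was 1.36 in ER stress, where the median over all 12909 genes was 0. It was 0.59 in glutamine depletion (-0.09 over all genes), 0.59 in hypoxia (-0.05), 0.27 in oxidative stress (-0.16) and 0.24 in osmotic stress (-0.12). In glucose depletion it was -0.16 (-0.02 over all genes).

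**Figure D1:**
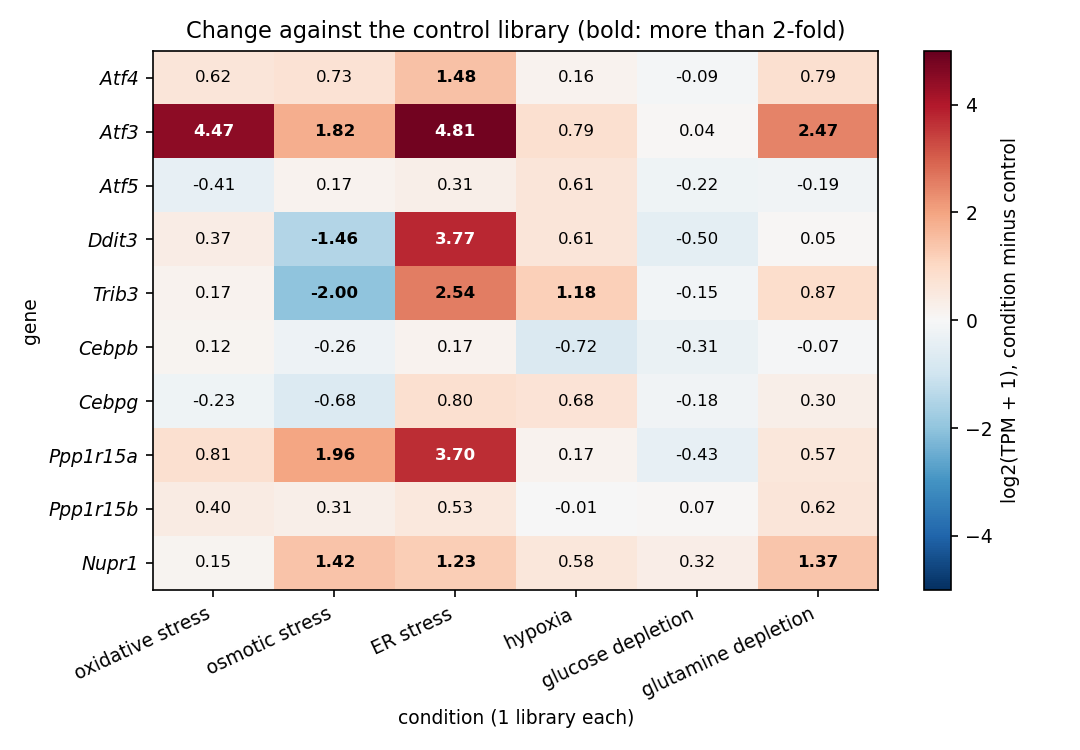
Change of each regulator (rows) in each condition (columns, 1 library each) as log2(TPM + 1) of the condition minus that of the control library, with red above and blue below the control and changes of more than 2-fold in bold. The ER stress column holds 6 bold rises, the osmotic stress column 3 rises and 2 falls, and the glucose depletion column none.

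The RNA quality and makeup of the libraries bear on these values. Fibroblast markers (9 of 9 passed the filter, among them Col1a1, Pdgfra and Vim) summed to 6456 TPM in ER stress and to between 12814 and 15854 TPM in the other libraries. Of the 7 macrophage markers 1 passed the filter (Cd68), with summed levels of 7.16 to 14.6 TPM, and of the endothelial and the epithelial markers 1 of 4 each (Kdr and Krt18). The epithelial sum was highest in ER stress, at 11.6 TPM, against 3.88 to 8.08 TPM elsewhere. No erythroid marker passed, with Hbb-bs and Hbb-bt at 0 throughout. Mitochondrially encoded genes took 9.25% of TPM in oxidative stress and 5.09% to 7.58% in the other libraries. The part of these shifts in the changes described here was not tested, although removal of the mitochondrially encoded genes or centring on the median of all genes altered no count of regulators.

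Promoter sequences from RefSeq (GRCm38.p6, 250 bases before to 50 after an annotated start) were found for 9 of the 10 genes, Ppp1r15b being the exception. They were searched on both strands for the C/EBP-ATF composite element TGATGNAAN, which ATF4 and C/EBP dimers are known to bind, its stricter core TTGCATCA (the amino acid response element, which overlaps the first on the other strand), the cAMP response element TGACGTCA, and the ER stress element. Atf3 and Nupr1 hold the core, and at the same place, from position -110 to -103 relative to the start. Of 32851 promoters of this length, 0.895% hold this core, 3.95% the composite element, 1.79% the cAMP response element and 0.119% the ER stress element. The 30 bases around the match are shown for these genes because they rose together in ER stress, osmotic stress and glutamine depletion, with the composite element in capitals. They lie at chr1:191183425-191183454 and chr7:126625562-126625591, both on the minus strand. Both starts used by RefSeq here are internal to the genes as GENCODE annotates them, so that both stretches lie within the annotated gene, and the Nupr1 stretch lies in an exon of a longer transcript.
Atf3: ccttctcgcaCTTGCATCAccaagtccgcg
Nupr1: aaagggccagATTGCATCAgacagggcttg

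Ppp1r15a, the other gene that rose in both ER and osmotic stress, holds no composite element in this window but has the cAMP response element from position -12 to -5. Its 150 bases before the start (chr7:45526269-45526418, minus strand, element in capitals) are printed, so that the surroundings of the element can be read. Beside them stand 143 bases of Atf3, from position -150 to -8 relative to its internal RefSeq start (chr1:191183341-191183483, minus strand, composite element in capitals). The 7 bases next to that start lie in an annotated exon of Atf3 and are left out. In Trib3 the composite element matched as TTTACATCA from position 14 to 22 after the RefSeq start. Atf4, Atf5, Ddit3, Cebpb and Cebpg had no match to these 4 motifs in the window. A match is a description of the letters, and the part of any element in the changes was not tested. Elements outside the window were not searched.
Ppp1r15a: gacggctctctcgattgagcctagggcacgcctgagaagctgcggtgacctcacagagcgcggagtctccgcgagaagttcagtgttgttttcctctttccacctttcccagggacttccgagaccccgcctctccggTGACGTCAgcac
Atf3: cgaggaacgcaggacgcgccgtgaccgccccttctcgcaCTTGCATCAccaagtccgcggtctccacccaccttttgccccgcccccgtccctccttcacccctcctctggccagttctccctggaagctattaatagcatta

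Atf4 encodes the central factor of the pathway and lies on chromosome 15 from 80255184 to 80257541 (GRCm38, plus strand). Its level was 276 TPM in the control, 424 in oxidative stress, 458 in osmotic stress, 773 in ER stress, 309 in hypoxia, 260.1 in glucose depletion and 478 in glutamine depletion. It was thus abundant without any treatment and highest in ER stress, where its log2 change was 1.48. The changes in glutamine depletion (0.79), osmotic stress (0.73) and oxidative stress (0.62) were smaller than 2-fold. Across the 7 libraries its highest level was 2.97 times its lowest, a narrower range than those of Atf3, Ddit3, Trib3 and Ppp1r15a.

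Ddit3 encodes CHOP, a bZIP factor linked to cell death under lasting ER stress, and lies on chromosome 10 from 127290774 to 127296288 (plus strand). Its level was 136 TPM in the control, 177 in oxidative stress, 48.9 in osmotic stress, 1869.5 in ER stress, 208 in hypoxia, 95.9 in glucose depletion and 141 in glutamine depletion. ER stress stood far above every other library, with a log2 change of 3.77 that was the 104th largest rise among the 12909 genes. Osmotic stress was the lowest, with a log2 change of -1.46, while its change in glutamine depletion was 0.05. The range of Ddit3, from osmotic to ER stress, was 38.3-fold and the widest of the 10 genes.

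Set against Atf4 within the same library, Ddit3 was at 2.42 times the Atf4 level in ER stress, at 0.493 times in the control and at 0.107 times in osmotic stress. Its transcript was the more abundant of the pair in ER stress only among the 7 libraries. Some Ddit3 reads cannot be assigned with certainty, since 68 bases of its exons (3.97%) overlap Mars on the opposite strand. In the annotation, 105 (6.13%) overlap a second gene named Ddit3 on the same strand. That gene has no level among the deposited values, so whether it took any reads is unknown. Mars was at 43.5 TPM in ER stress and 78.4 TPM in the control, the opposite direction to Ddit3.

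Trib3, on chromosome 2 from 152337422 to 152344032 (minus strand), encodes a pseudokinase that is induced by ATF4 and CHOP and restrains them. It was at 30.8 TPM in the control, 34.9 in oxidative stress, 6.96 in osmotic stress, 184 in ER stress, 71.1 in hypoxia, 27.7 in glucose depletion and 57.0 in glutamine depletion. Its order over the libraries resembled that of Ddit3, with ER stress and hypoxia highest and osmotic stress lowest. The log2 change was 2.54 in ER stress, 1.18 in hypoxia and -2.00 in osmotic stress, the 254th lowest change of the 12909 genes. In glutamine depletion it was 0.87.

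Atf3, one of the genes with the core element printed above, was the least abundant regulator in the control library. Its product is a bZIP factor that many acute stresses induce, and the gene spans chromosome 1 from 191170296 to 191218039 (minus strand). It was at 3.02 TPM in the control, 88.3 in oxidative stress, 13.2 in osmotic stress, 112 in ER stress, 5.95 in hypoxia, 3.14 in glucose depletion and 21.3 in glutamine depletion. ER and oxidative stress were far above the rest, at 37.1 and 29.2 times the control TPM, with log2 changes of 4.81 and 4.47. These were the 27th and the 58th largest rises among all genes. Glutamine depletion followed with a log2 change of 2.47 and osmotic stress with 1.82, while glucose depletion (0.04) stayed at the control level.

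In oxidative stress, therefore, Atf3 changed by 4.47 where Ddit3 changed by 0.37, Trib3 by 0.17 and Atf4 by 0.62. Osmotic stress, the other treatment of 3 hours, gave Atf3 1.82, Ddit3 -1.46 and Trib3 -2.00. The conditions of 3 and of 10 hours differ in agent as well as in time, so the part of time cannot be told apart.

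Atf5, on chromosome 7 from 44812256 to 44816658 (minus strand), encodes a relative of ATF4 whose mRNA is also translated more when eIF2α is phosphorylated. Its level moved little, from 143 TPM in oxidative stress to 291 TPM in hypoxia. It was at 190.1 TPM in the control, 214 in osmotic stress, 235 in ER stress, 164 in glucose depletion and 166 in glutamine depletion. No condition took it past 2-fold, and its largest log2 change was 0.61, in hypoxia. Exons of Nup62 (82 bases, opposite strand) overlap it, and Nup62 was at 43.6 to 61.8 TPM.

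The C/EBP genes of the group, whose products pair with ATF4 and CHOP, stayed within 2-fold in all 6 conditions. Cebpb, an intronless gene on chromosome 2 from 167688915 to 167690418 (plus strand), was at 40.9 TPM in the control, 44.7 in oxidative stress, 34.0 in osmotic stress, 46.2 in ER stress, 24.5 in hypoxia, 32.7 in glucose depletion and 38.9 in glutamine depletion. Hypoxia was the lowest library, with a log2 change of -0.72. Tmem189 on the opposite strand shares 312 bases with Cebpb (20.7% of its exonic bases), and stood at 51.9 to 69.1 TPM, so part of the Cebpb level is uncertain.

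Cebpg encodes a C/EBP protein that lacks a typical activation domain and forms dimers with ATF4. It lies on chromosome 7 from 35046422 to 35056573 (minus strand), and was at 34.8 TPM in the control, 29.5 in oxidative stress, 21.3 in osmotic stress, 61.2 in ER stress, 56.4 in hypoxia, 30.7 in glucose depletion and 42.9 in glutamine depletion. Like Trib3, it was highest in ER stress and hypoxia and lowest in osmotic stress, with log2 changes of 0.80, 0.68 and -0.68. The Cebpb level was 1.18 times that of Cebpg in the control, 1.59 times in osmotic stress and 0.434 times in hypoxia, so the pair changed places between libraries although neither gene passed 2-fold.

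**Figure D2:**
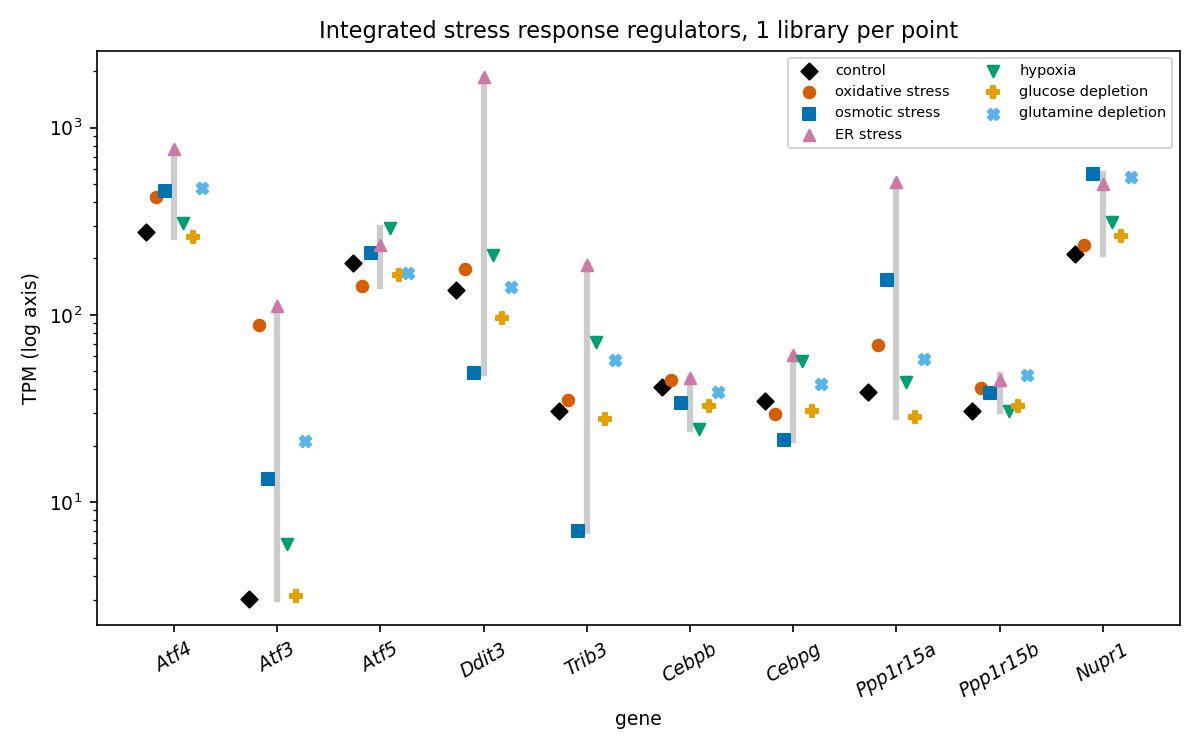
Level of each regulator in TPM on a log axis, with 1 point per library, a colour and shape per condition, and a grey bar from the lowest to the highest library. Ddit3 runs from 48.9 TPM in osmotic stress to 1869.5 TPM in ER stress and Atf3 from 3.02 to 112 TPM, while in Atf4, Atf5, Cebpb, Cebpg, Ppp1r15b and Nupr1 the highest library is at most 2.97 times the lowest.

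Ppp1r15a and Ppp1r15b encode the adaptors GADD34 and CReP, which bring protein phosphatase 1 (PP1) to eIF2α and so reverse its phosphorylation. GADD34 is known as the stress-induced form and CReP as the constitutive one. Ppp1r15a is the gene printed above with the cAMP response element. Ppp1r15a, on chromosome 7 from 45522916 to 45526268 (minus strand), was at 38.8 TPM in the control, 68.9 in oxidative stress, 154 in osmotic stress, 514 in ER stress, 43.6 in hypoxia, 28.6 in glucose depletion and 57.9 in glutamine depletion. It was highest in ER stress (log2 change 3.70, the 116th largest rise among all genes) and next in osmotic stress (1.96), where Ddit3 and Trib3 fell. Oxidative stress (0.81) and glutamine depletion (0.57) were within 2-fold.

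Ppp1r15b, on chromosome 1 from 133131143 to 133139783 (plus strand), was at 30.7 TPM in the control, 40.8 in oxidative stress, 38.3 in osmotic stress, 45.0 in ER stress, 30.5 in hypoxia, 32.4 in glucose depletion and 47.8 in glutamine depletion. These levels lie close together, and the largest log2 change was 0.62, in glutamine depletion. In the annotation, Gm26616 on the opposite strand shares 640 bases with its exons (11.4%).

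The ratio of the adaptors was highest in the libraries with the most Ppp1r15a. The Ppp1r15a level was 1.26 times that of Ppp1r15b in the control, 11.4 times in ER stress and 4.03 times in osmotic stress. It was 1.69 times in oxidative stress, 1.43 times in hypoxia, 1.21 times in glutamine depletion and 0.881 times in glucose depletion. In glutamine depletion both transcripts were above the control, with log2 changes of 0.57 and 0.62, and their ratio was close to that of the control. Glucose depletion was the only library of the 7 in which the stress-induced form was the lower of the pair. The catalytic subunits of PP1 (Ppp1ca, Ppp1cb and Ppp1cc, 3 of 3 measured) stayed within 2-fold throughout, with log2 changes from -0.38 to 0.33. Ppp1ca stands on a pair of rows with identical values and was counted once.

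**Figure D3:**
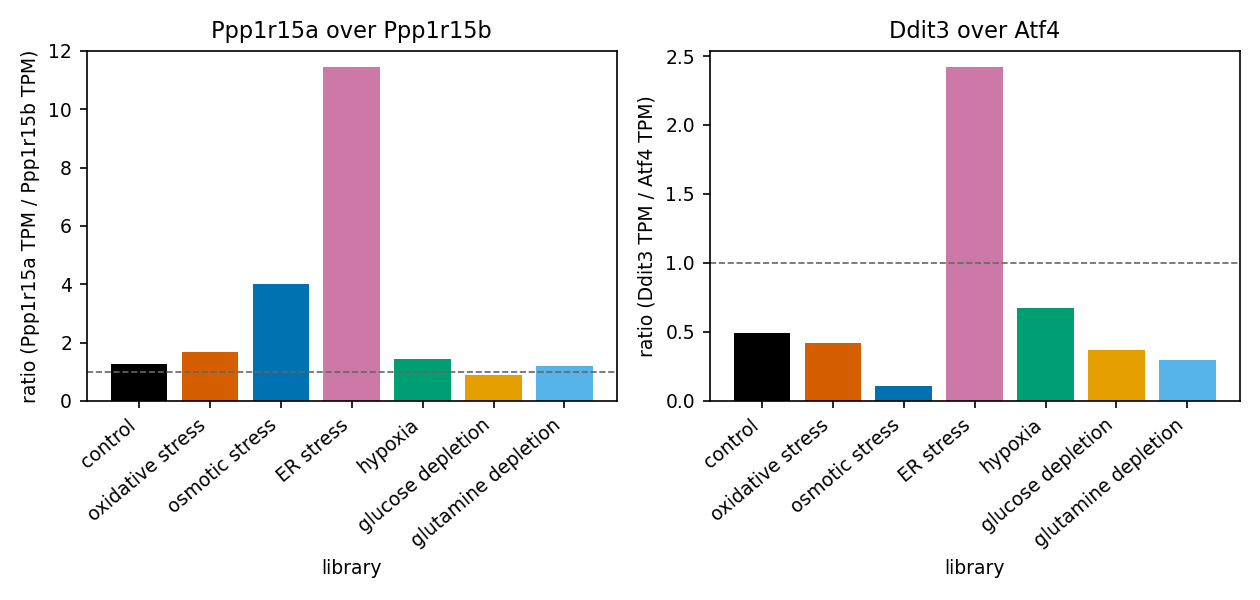
Ratio of the TPM of Ppp1r15a to Ppp1r15b (left) and of Ddit3 to Atf4 (right) in each of the 7 libraries, as bars from 0, with a dashed line where the levels are equal. The ER stress bars reach 11.4 and 2.42, and osmotic stress has the second highest bar on the left (4.03) and the lowest on the right (0.107).

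Nupr1 encodes a small chromatin-associated protein induced by stress, and lies on chromosome 7 from 126623249 to 126630861 (minus strand). It was at 211 TPM in the control, 235 in oxidative stress, 568 in osmotic stress, 498 in ER stress, 315 in hypoxia, 264 in glucose depletion and 549 in glutamine depletion. Unlike the other risers of ER stress, it was highest in osmotic stress (log2 change 1.42) and glutamine depletion (1.37), with ER stress next (1.23). These are 3 of the 4 conditions in which Atf3 rose. In oxidative stress, where Atf3 rose as well, Nupr1 was at 0.15. The control was its lowest library, and all 6 changes were above 0. Against the median of the 7 libraries the changes in these 3 conditions were 0.85, 0.80 and 0.66, within 2-fold, so the rise of Nupr1 past 2-fold depends on the choice of reference.

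Of the 4 kinases upstream of Atf4, 1 rose and 1 fell past 2-fold in ER stress, and none passed it in the other 5 conditions. With 8.6% of all genes raised and 11% lowered in ER stress, these counts are near what any 4 genes could show, and both changes were barely past the threshold. Eif2ak3, which encodes the ER-resident kinase PERK, was at 23.0 TPM in the control, 29.6 in oxidative stress, 40.8 in osmotic stress, 47.9 in ER stress, 25.4 in hypoxia, 22.4 in glucose depletion and 14.0 in glutamine depletion. It rose in ER stress with a log2 change of 1.03, just past 2-fold. Eif2ak2, which encodes the double-stranded RNA sensor PKR, fell there with -1.04, from 23.0 to 10.7 TPM. Eif2ak4 (GCN2, the sensor of uncharged tRNA) ranged from 9.42 to 15.6 TPM and Eif2ak1 (HRI, the heme-regulated kinase) from 19.0 to 29.3 TPM, with no change past 2-fold.

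Among proteins that act on the kinases, Dnajc3, which encodes the PERK inhibitor p58IPK, rose in ER stress from 62.6 to 401 TPM (log2 change 2.66). Oma1, a mitochondrial protease that activates HRI signalling, fell in oxidative stress from 12.9 to 5.72 TPM (-1.05). Impact, an inhibitor of GCN2, had its lowest level in glutamine depletion, at 37.8 TPM against 72.8 TPM in the control (-0.93). Of the 5 genes of this list in the table, 1 rose in ER stress (8.6% of all genes did) and 1 fell in oxidative stress (4.85%). None passed 2-fold in the other conditions. With 5 genes, counts of 1 are values of single genes. The 8 genes for subunits of eIF2 and of its exchange factor eIF2B had 1 change past 2-fold in all. It was a fall of Eif2b3 in hypoxia from 44.9 to 21.8 TPM (-1.01), where 2.64% of all genes fell.

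Known targets of ATF4 outside the group were raised most often in ER stress. Of 29 such genes, 21 rose in ER stress (8.6% of all genes did) and none fell, with a median log2 change of 1.28. One of them, Fgf21, passed the expression filter through its ER stress level alone, at 19.6 TPM against 0.205 to 1.78 TPM elsewhere, so its rise was fixed by the filter. With the filter set on the other 6 libraries, 20 of 28 rose, against 7.76% of all genes, with a median of 1.27. Chac1, which degrades glutathione, went from 26.2 to 224 TPM, and Slc3a2, a subunit of amino acid transporters, had a log2 change of 2.85. Herpud1, which the other arms of the unfolded protein response also induce, had the largest change of the list, 4.04. The smallest was that of Ddit4, at 0.55. The 29 genes were chosen with earlier results of these data known, so the count describes this list and not all ATF4 targets. Mars, whose product charges tRNA with methionine, was left off although the list holds other genes of this kind. It went from 78.4 TPM in the control to 43.5 TPM in ER stress.

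In the other conditions few of the 29 passed 2-fold, and the counts of 2 rises in glutamine depletion and 3 in oxidative stress were near the shares of all genes given above (3.21% and 3.94%). Glutamine depletion raised Chac1 (1.69) and Slc7a1 (1.10), a cationic amino acid transporter, and the median of the list was 0.24 with 26 of 29 genes above 0, against a median of -0.09 over all genes. Oxidative stress raised Slc7a11 (2.22), the cystine transporter, Gdf15 (1.80) and Chac1 (1.38), with a list median of 0.02. Hypoxia raised 4, where 3.57% of all genes rose (Vldlr, Stc2, Ddit4 and Aldh1l2, from 1.02 to 2.39). The list median in hypoxia was 0.11, against -0.05 over all genes, and Atf4 itself changed by 0.16. As with Herpud1, genes of this list can have inducers other than ATF4. Which factor raised the listed genes in each condition was not tested. Glucose depletion changed none, with a median of -0.09.

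Osmotic stress lowered Chac1, from 26.2 to 4.28 TPM (log2 change -2.36), and Sesn2, which restrains mTORC1, from 35.6 to 14.5 TPM (-1.24). A count of 2 falls in 29 genes is below the 8.76% of all genes that fell there. Ddit4 rose (1.17), and the list median was -0.08 against -0.12 over all genes.

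The other arms of the unfolded protein response, driven by ATF6 and XBP1, were read from 11 genes. All 11 rose in ER stress, against 8.6% of all genes, with a median log2 change of 3.05, and Sdf2l1, an ER chaperone cofactor, changed by 4.22. In glutamine depletion, where Atf3 and Nupr1 rose, 10 of the 11 stayed within 2-fold and the median was -0.32. Sdf2l1 fell there (-1.30), as did 3.21% of all genes. Oxidative stress had a median of -0.50, and again Sdf2l1 was the gene that fell (-1.26, with 4.85% of all genes lowered). In osmotic stress Dnajb9 rose (1.18, with 3.08% of all genes raised) and Xbp1 fell (-1.26, with 8.76% lowered). In glucose depletion all 11 were above the control, by 0.15 to 0.94. The median of the 10 regulators was -0.16 there, and that over all genes was -0.02.

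**Figure D4:**
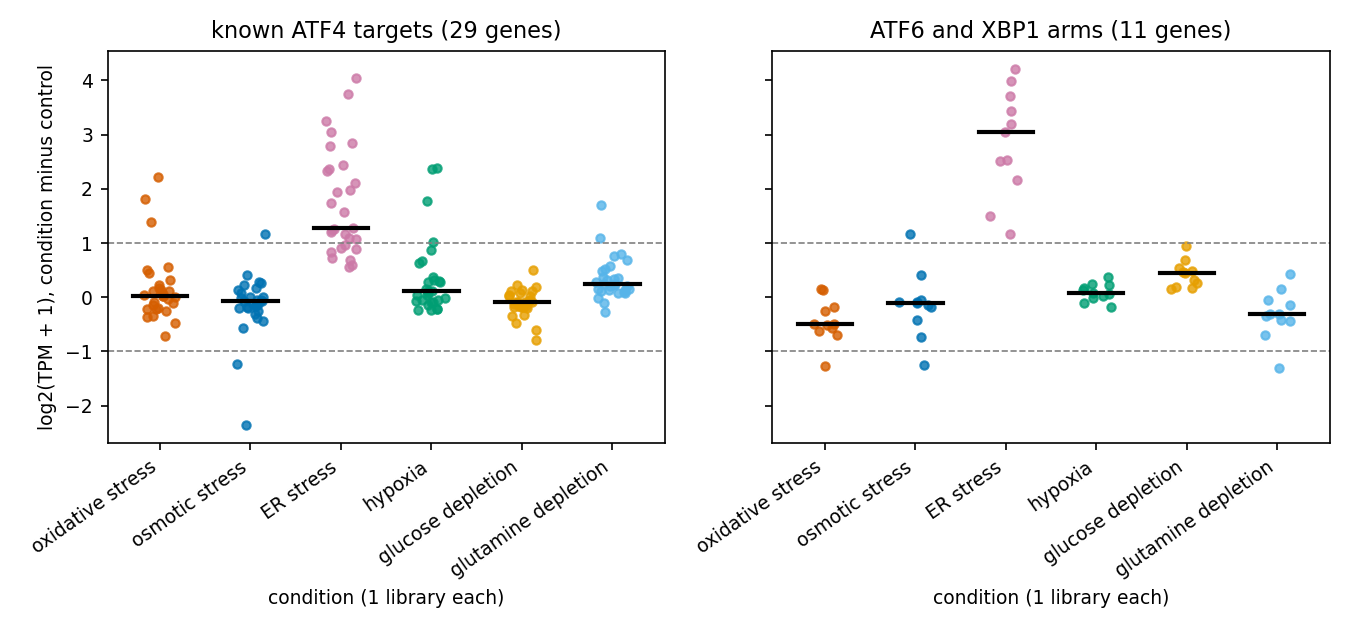
Log2 change of 29 known ATF4 targets (left) and 11 genes of the ATF6 and XBP1 arms (right) in each condition, with 1 point per gene, black lines at the medians and dashed lines at 2-fold. Both lists stand high in ER stress (medians 1.28 and 3.05), and in glutamine depletion the medians lie on opposite sides of 0 (0.24 and -0.32).

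For each regulator, the genes whose log2(TPM + 1) over the 7 libraries was most like its own were sought among 6756 genes that varied by at least 2-fold. The libraries are the same for every gene and the points are few, so these correlations are descriptions. Ddit3 was most like Tor3a (Pearson r = 0.989), which went from 12.2 TPM in osmotic stress to 27.8 TPM in ER stress. Trib3 was most like Dpf2 (0.984) and Arhgef2 (0.981), and Cebpg most like Zfp983 (0.993) and Zfp639 (0.975). For Atf4 the nearest gene was Spty2d1 (0.990), for Atf3 Kdm7a (0.976) and Ypel5 (0.970), for Ppp1r15a Wsb1 (0.983), and for Ppp1r15b Ier2 (0.947).

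The match of Tor3a to Ddit3 had r = 0.940 in the 5 libraries left without ER and osmotic stress, in which Ddit3 was farthest from its median. That of Wsb1 to Ppp1r15a fell to 0.886 without the same libraries. Kdm7a and Atf3 had r = 0.908 without ER and oxidative stress. Each gene was picked by its r over all 7 libraries, so the r in 5 of them is no separate check. Auts2, also among the nearest to Ppp1r15a, fell to 0.729 without ER and osmotic stress. Zcchc5, the nearest to Atf5, went from 0.976 to 0.997 without hypoxia and oxidative stress. Nupr1 had the poorest match of the 10 in a gene that was not at 0 in most libraries, Syde2 (0.903), the nearest rows being Mir143 (0.945) and AC164629.2 (0.926), which were at or near 0 TPM in 4 libraries.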

How the data were processed

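RNA-seq libraries (Illumina TruSeq stranded mRNA, paired-end) were made by the authors, 1 per condition. Reads were quantified with kallisto 0.43.1 at default settings against GRCm38 transcripts of Ensembl release 90, and the deposited values are TPM, which the authors added up by gene, to a total of 1000000 per library. Default settings do not use strand, so genes that overlap on opposite strands cannot be fully separated. Read numbers are unknown.

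The difference of log2(TPM + 1) from the control library was computed where the mean level reached 2 TPM (12909 of 49382 genes). Changes past 2-fold were counted, and no test was possible with 1 library per group. Members and lists were chosen with earlier results of these data known. Named genes were all 10 members, the 4 kinases, at most 8 genes with the largest change per list, and the 3 genes most correlated with each member (range of at least 1 log2 unit). Counts of list genes past 2-fold are named in full in places, and such genes outside this rule (Aldh1l2, Ddit4, Gdf15, Sesn2, Slc7a1, Stc2 and Xbp1) were chosen after their values were seen. Results were recomputed with pseudocounts of 0.1 and 5 TPM, every gene or a mean level of 10 TPM or more, thresholds of 1.5-fold and 3-fold, changes centred on the median gene, TPM rescaled without mitochondrially encoded genes, protein-coding genes alone for the shares over all genes, and the median of the 7 libraries as the reference. For the lists, a filter on the 6 libraries other than the condition counted was added after seeing the data. Locations came from GENCODE M21 (GRCm38), which matched 12777 of the kept genes by identifier. The steps were tested on simulated data. Computations used pandas 2.3.3 and numpy 2.4.6 in Python 3.11.15, with figures from matplotlib 3.10.9. Promoters came from RefSeq (GRCm38.p6).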

Additional observations from a re-analysis of the deposited data

How the results depend on the processing

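The counts of regulators past 2-fold were the same in all 6 conditions with a pseudocount of 0.1 or 5 TPM, without the expression filter or with a mean of at least 10 TPM, after centring, and without the mitochondrially encoded genes. At 1.5-fold, 3 rose in oxidative stress (7.27% of all genes did), 5 rose and 1 fell in hypoxia (7.23% and 8.1%), and 5 rose in glutamine depletion (7.47%). At 3-fold, 4 rose in ER stress (3.39%), 2 rose and 1 fell in osmotic stress (1.65% and 3.37%), 0 rose in hypoxia (2.14%) and 1 rose in glutamine depletion (1.61%). Fewer genes pass a stricter threshold by construction. With the median of the 7 libraries as the reference, 1 rose in osmotic stress (2.14% of all genes), 0 rose in glutamine depletion (2.22%), and Atf3 was the 1 gene that fell in hypoxia (log2 change -1.03, with 1.5% of all genes lowered) and the 1 in glucose depletion (-1.78, with 1.25%). This reference sets Atf3 against its own higher levels under stress. In ER stress 4 rose in place of 6 under it (7.78% of all genes), Atf4 (0.86) and Nupr1 (0.66) being within 2-fold. Over 11300 protein-coding genes the shares past 2-fold were lower than over all genes, the shares that rose being 7.10% in ER stress, 1.93% in hypoxia, 0.442% in glucose depletion, 1.89% in glutamine depletion, 1.79% in oxidative stress and 1.41% in osmotic stress. Over the other settings that kept the 2-fold threshold, the share of all genes that rose in ER stress ran from 3.45% to 9.67%. In glucose depletion it ran from 0.748% to 2.25%, above the protein-coding share. Replicates could not be left out in turn, since each group holds 1 library. No paired analysis was possible because each group holds 1 library.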

Other observations

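Trib1 and Trib2, the relatives of Trib3, fell in ER stress (11% of all genes did) while Trib3 rose. From 12.8 TPM in untreated cells, Trib1 reached 3.76 TPM (log2 change -1.53), and Trib2 went from 20.8 to 3.69 TPM (-2.21). In osmotic stress, where 8.76% of all genes fell, all 3 Tribbles genes did. On the log2 scale Trib1 fell by 1.01, just past 2-fold, Trib2 by 1.21 and Trib3 by 2.00. Trib1 rose in oxidative stress, to 26.7 TPM (1.01, just past 2-fold).

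Of 18 other bZIP factors, 17 passed the expression filter, Batf3 being the exception. Of the 17, 2 rose in osmotic stress (3.08% of all genes did) and 2 in glutamine depletion (3.21%). In oxidative stress (3.94%), ER stress (8.6%) and hypoxia (3.57%) 1 rose, and in osmotic stress 1 fell (8.76%). Such small counts are given as values of single genes. Fosl1, an AP-1 subunit, rose in the same 4 conditions as Atf3, with log2 changes of 1.42 in oxidative stress, 1.02 in osmotic stress, 1.20 in ER stress and 1.18 in glutamine depletion. Junb rose in osmotic stress (1.44) and glutamine depletion (1.34) and was at -0.61 in ER stress. Atf7 rose in hypoxia (1.07), and Cebpd fell in osmotic stress (-1.06). No factor of this list passed 2-fold in glucose depletion.

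Among 4 genes known as CHOP targets, Ero1l, an ER oxidase that HIF also induces, rose in ER stress (1.94) and more in hypoxia (3.10), where Ddit3 changed by 0.61. Bbc3, which encodes the death-promoting BCL2 family protein PUMA, fell in osmotic stress from 19.1 to 5.54 TPM (-1.62), where 8.76% of all genes fell. Ddit3 fell in that condition too. In ER stress, where Ddit3 rose by 3.77, Bbc3 was at 0.45. Whether CHOP acted on Ero1l or Bbc3 here was not tested. Tnfrsf10b and Bcl2l11 stayed within 2-fold in all 6 conditions.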
